A study of Homo sapiens with 29 samples.

Results

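HepG2 is an established cell line from a human liver tumour that keeps part of the expression programme of hepatocytes. Untreated HepG2 cells cultured for 48 h were compared with untreated HepG2 cells cultured for 6 h, on 3 arrays each, which are 6 of the 29 arrays of the series. These 6 were chosen by their labels and not by the level of any gene, and their similar array medians were known then. The comparison asks which transcripts differed with time in culture without treatment, one of the contrasts among time points that the series set out to derive. The series also holds untreated cells at 0, 12, 18 and 24 h and cells treated with CCL, the labels' abbreviation for the herb Cratoxylum cochinchinense Lour, at 6 to 48 h. Both groups carried no added allele or agent that the labels name. Every sample is given the same seeding number, and the labels state neither the medium, nor a change of medium, nor a vehicle. The arrays of each group are numbered as sets 1, 2 and 3. The labels do not say what a set is, nor whether sets are separate cultures, so p-values below measure only the spread between these arrays, which may be technical. In bulk RNA, a change in the share of cells in some state and a change per cell cannot be told apart.

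Hepatocyte-like cells secrete albumin, transthyretin and fibrinogen, make cholesterol from acetyl-CoA through the mevalonate pathway, and export bile acids. The sterol-regulated transcription factors SREBF1 and SREBF2 drive lipid synthesis genes when membrane sterol is low. Several inhibitors of WNT signalling, DKK4 among them, are themselves known as WNT target genes.

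Values are log2 expression. The labelled cell type was checked first against its markers. All 12 hepatocyte markers with a probe set lay above log2 5 on each of the 6 arrays, with a mean level of 10.39 to 10.48 at 6 h and 10.56 to 10.73 at 48 h. None of 6 fibroblast and stellate markers and none of 10 endothelial markers did so, while 2 of 8 leukocyte markers (CD68 and LYZ), 1 of 7 squamous markers (SFN) and 7 of 10 cholangiocyte and progenitor markers did. The array medians were alike, at 2.964 to 3.012 at 6 h and 2.958 to 3.024 at 48 h. Pairwise correlations of the 6 arrays ran from 0.962 to 0.986. The 48 h array of set 3 correlated more with the 6 h array of its own set (0.984) than with either other 48 h array (0.965 and 0.975).

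Few genes differed at the chosen threshold, and their number depended on how the spread was estimated. Of 6529 genes tested, the fit over all 29 arrays with 1 mean per group (limma, Benjamini-Hochberg adjusted p under 0.05) called 1 gene, DKK4, or 0.0153% of those tested. The next lowest adjusted p was 0.155. A fit on the 6 arrays with the set number as a block, called the paired fit here, called 23 genes. Of these, 15 were higher at 48 h (0.230%) and 8 were lower (0.123%). The median standard error per gene was 0.26 in the first fit and 0.11 in the paired one, while the mean changes are the same in both. The fit on the 6 arrays without the block had a median standard error of 0.14 and called 2 genes, DKK4 and DEPP1. The 29-array fit was the main test, and the paired fit was an alternative to it. The labels do not state that a set number marks a shared culture or day. In the text below, rose and fell refer to the paired fit, and errors of changes are its standard errors. Adjusted p is its limma value unless the 29-array fit is named. Every paired call except DKK4 missed the threshold in the 29-array fit. Among them the lowest adjusted p there was 0.155 for DEPP1 and 0.167 for HOXD1. None of the other paired calls came near the threshold in that fit. Without set 1 the paired fit called 7 genes, and the 5 of them among the 23 were HOXD1, DKK4, DEPP1, MIR21 and TMC7. With no filter on low values it called 9, which were those 5 and CCL16, SLC51B, SOS1 and MIR4521.

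The changes were small for most genes. The median absolute change was 0.11 on the log2 scale and the median change 0.01. Only 8 genes had a mean change of more than 1, and 3 higher genes (HOXD1, DKK4, DEPP1) and 1 lower gene (MIR21) changed by more than 1 in each of the 3 sets. As a background for counts below, 48 h lay above 6 h in all 3 sets for 20.0% of the genes tested and below in all 3 for 16.3%. All 3 arrays of 48 h lay above all 3 of 6 h for 6.92% of genes, and below for 5.04%. Across the 6529 genes, changes in sets 1 and 2 correlated at 0.49, changes in sets 1 and 3 at 0.20, and changes in sets 2 and 3 at 0.18. These correlations are descriptions, since genes are not independent replicates.

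**Figure D1:**
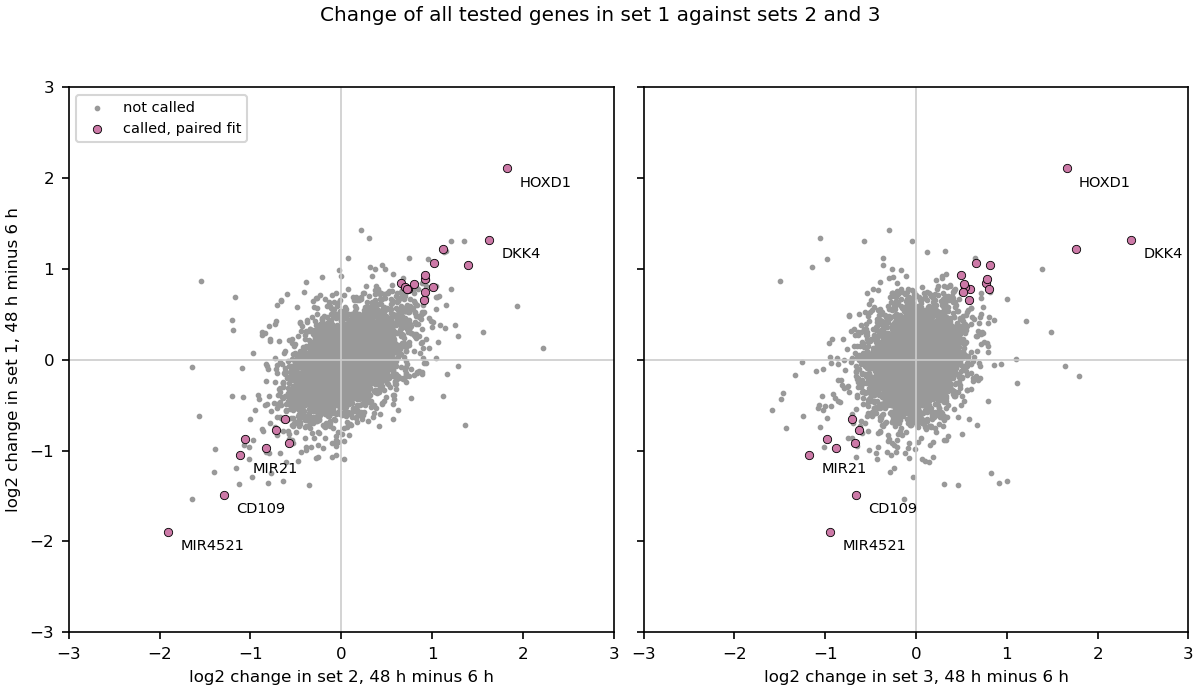
Log2 change from 6 h to 48 h in set 1 (vertical axis) against set 2 (left) and set 3 (right) for all 6529 genes tested; the 23 genes called in the paired fit are filled. HOXD1 (2.11) and DKK4 (1.32) have the highest and MIR4521 (-1.89) the lowest change in set 1 among the filled points.

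HOXD1, a homeobox transcription factor of body patterning, had the largest mean increase. It measured 5.40, 5.56 and 4.92 at 6 h in sets 1 to 3 and 7.50, 7.39 and 6.58 at 48 h. The groups did not overlap. HOXD1 rose by 1.86 ± 0.11, or 3.64-fold (adjusted p = 0.00121; 0.167 in the 29-array fit).

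DKK4, a secreted WNT inhibitor, was the gene called in both fits. It measured 4.03, 3.88 and 3.46 at 6 h and 5.35, 5.51 and 5.83 at 48 h, so that set 3 was lowest at 6 h and highest at 48 h. DKK4 rose by 1.77 ± 0.18, or 3.42-fold (paired adjusted p = 0.0120; 0.0189 in the 29-array fit, with a standard error of 0.30). Leaving out any 1 of the 6 arrays ended its call in the 29-array fit, with adjusted p from 0.0514 to 0.187. Its levels at 6 h lay below log2 5, the level a gene had to pass on 2 arrays to be tested. Among these 6 arrays DKK4 passed that level only at 48 h, the group where it was higher. With no filter on low values its limma adjusted p in the 29-array fit was 0.0447.

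DEPP1, a FOXO target that acts in autophagy, measured 4.86, 4.67 and 4.57 at 6 h and 6.08, 5.79 and 6.33 at 48 h. All 48 h arrays were higher. DEPP1 rose by 1.37 ± 0.14 (adjusted p = 0.0120; 0.155 in the 29-array fit). A second, dimmer probe set of DEPP1 differed by 0.39.

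Other genes of signalling and transcription rose by less. FREM1, an extracellular protein of the basement membrane, had a mean of 6.41 ± 0.12 (SD, n = 3) at 6 h and 7.33 ± 0.11 at 48 h. TOX3, a high-mobility-group nuclear protein, went from 7.19 ± 0.26 to 7.95 ± 0.23. The transcriptional repressor BCL6 went from 6.83 ± 0.14 to 7.59 ± 0.13, and was the called member among 9 tested genes of FOXO targets, quiescence and CDK inhibitors. PHF8, a histone demethylase, rose by 0.71 ± 0.11 and the phosphodiesterase PRUNE1 by 0.73 ± 0.11. HK2, the hexokinase that commits glucose to metabolism, measured 6.73, 6.66 and 6.38 at 6 h and 7.53, 7.36 and 6.92 at 48 h. The calls of PHF8, PRUNE1 and HK2 were lost after quantile normalization, with adjusted p of 0.0521, 0.0581 and 0.0560. HK2 rose by 0.68 ± 0.10, while none of the other 5 glycolysis genes tested was called, and the list's median change was -0.05.

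**Figure D2:**
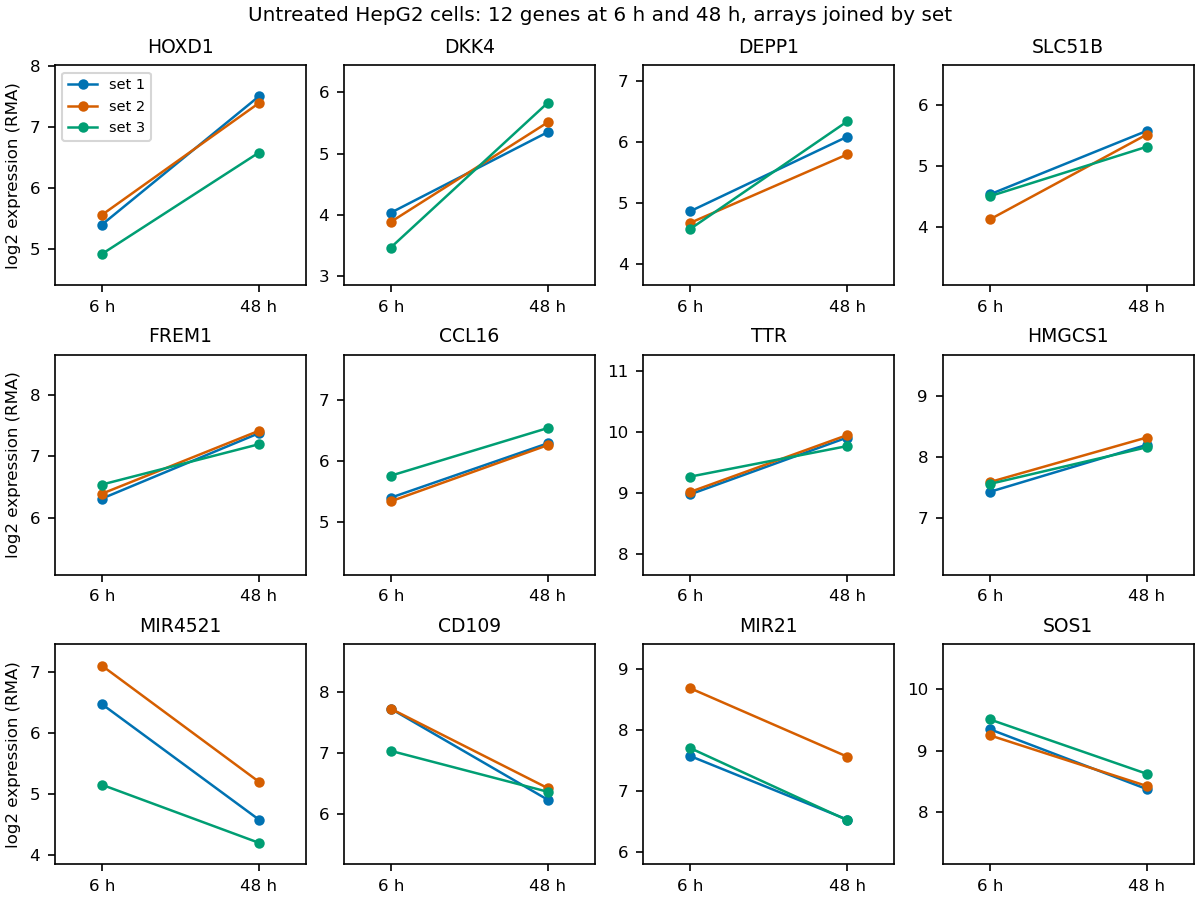
Log2 expression of 12 genes called in the paired fit, at 6 h and 48 h, with the arrays of 1 set joined by a line; every panel spans the same range of log2 units. The 3 lines run the same way in each panel, and for MIR4521 the 6 h array of set 3 (5.15) lies below the 48 h array of set 2 (5.20).

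Genes of cholesterol synthesis had the highest median change among the lists with at least 5 tested members. Of 15 tested genes of cholesterol synthesis and uptake, 3 rose (HMGCS1, MVK and STARD4) and none fell. In all 3 sets, 12 of the 15 were higher at 48 h and none was lower, against 20.0% of all genes above and 16.3% below. For 11 of the 15, all 48 h arrays lay above all 6 h arrays, against 6.92% of all genes. The list's median change was 0.55, against 0.01 over all genes, and 0.44, 0.68 and 0.35 in sets 1 to 3. The list holds 29 genes, of which 18 had a named probe set. Since the lists were chosen with earlier results of these data known, its rank and these shares are descriptions.

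HMGCS1 makes the HMG-CoA from which mevalonate is formed. It measured 7.43, 7.59 and 7.56 at 6 h and 8.20, 8.32 and 8.16 at 48 h, with no overlap, and rose by 0.70 ± 0.10 (adjusted p = 0.0390). MVK, mevalonate kinase, measured 4.76, 4.77 and 4.65 at 6 h and 5.56, 5.78 and 5.19 at 48 h. All 3 of its 6 h arrays lay below log2 5. MVK rose by 0.78 ± 0.12 (adjusted p = 0.0446). STARD4, which carries sterols between membranes, measured 6.54, 6.71 and 7.15 at 6 h and 7.37, 7.50 and 7.68 at 48 h, set 3 being highest at both times. STARD4 rose by 0.72 ± 0.11 (adjusted p = 0.0446). All 3 calls were lost with no filter on low values (adjusted p from 0.117 to 0.119) and without set 1 (0.179 to 0.205).

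Of the uncalled members, 8 were higher at 48 h on every array than on any 6 h array. They were chosen for naming after their values were seen. MVD, which decarboxylates mevalonate pyrophosphate, had a change of 0.70 (adjusted p = 0.123) and IDI1, the isomerase that follows it, one of 0.62 (0.0850). The changes of the later sterol enzymes were 0.60 for MSMO1, 0.58 for SQLE, 0.55 for NSDHL and 0.53 for DHCR7, with adjusted p from 0.0605 to 0.0840. ACAT2 had a change of 0.39, and SREBF2, the regulator of the pathway, one of 0.44. Other members had smaller changes: FDPS, TM7SF2, EBP and PMVK had changes of 0.21, 0.19, 0.06 and -0.01, and their groups overlapped.

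**Figure D3:**
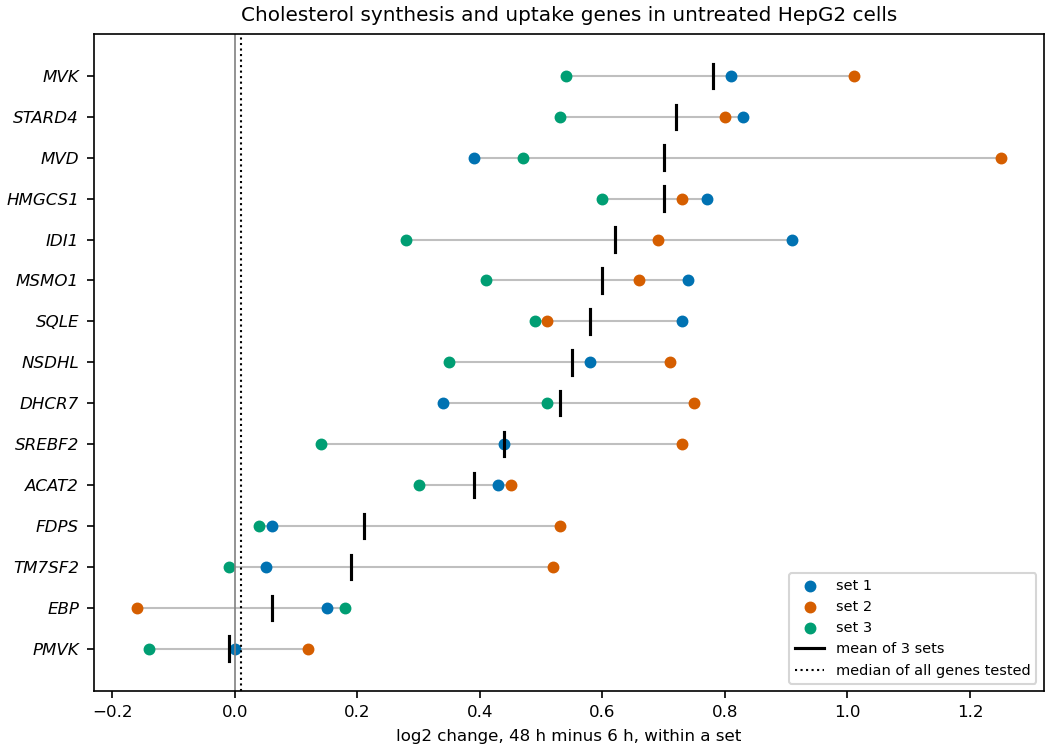
Log2 change from 6 h to 48 h of the 15 tested cholesterol synthesis and uptake genes in each set (points) with the mean of the sets (bars); the dotted line is the median of all genes tested, 0.01. Set 3 gives the lowest point for 9 of the 11 genes with groups that did not overlap.

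The promoters of the 3 called genes are shown because 12 of the 15 members were higher at 48 h in all sets. Each is the 250 bases before the transcript start from RefSeq (GRCh38.p14), 5′ to 3′ on the gene's strand, with CCAAT and its reverse complement ATTGG in capitals. The HMGCS1 stretch lies at chr5:43313413-43313662 on the minus strand, that of MVK at chr12:109573544-109573793 on the plus strand and that of STARD4 at chr5:111512536-111512785 on the minus strand.
HMGCS1: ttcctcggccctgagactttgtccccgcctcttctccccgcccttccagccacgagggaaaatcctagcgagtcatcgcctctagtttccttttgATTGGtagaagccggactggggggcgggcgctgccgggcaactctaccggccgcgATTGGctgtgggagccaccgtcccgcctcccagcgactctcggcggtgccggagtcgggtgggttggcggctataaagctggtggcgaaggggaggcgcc
MVK: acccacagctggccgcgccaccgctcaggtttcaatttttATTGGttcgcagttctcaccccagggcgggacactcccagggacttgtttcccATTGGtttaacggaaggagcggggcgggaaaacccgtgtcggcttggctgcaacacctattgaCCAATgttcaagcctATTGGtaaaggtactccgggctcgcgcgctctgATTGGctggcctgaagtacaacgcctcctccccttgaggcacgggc
STARD4: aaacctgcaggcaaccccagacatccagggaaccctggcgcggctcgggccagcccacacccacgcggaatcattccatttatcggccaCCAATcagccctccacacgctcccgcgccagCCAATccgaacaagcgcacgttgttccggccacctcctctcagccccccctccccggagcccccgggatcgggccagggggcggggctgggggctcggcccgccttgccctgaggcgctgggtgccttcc
These stretches hold CCAAT 2, 5 and 2 times, counted on both strands. CCAAT is the letters bound by the NF-Y factor. It was found in 11 of 13 promoters of tested cholesterol genes searched, against 32% of 35116 RefSeq promoters of the same length. The tested members SQLE and ACAT2 were not searched. SQLE was left out by a rule on its chromosome, which was not applied to the 35116. The 35116 were not limited to tested genes or to 1 promoter per gene, as the 13 were, so these shares are of unlike sets. The GC box GGGCGG was found in 12 of the 13, against 42.6% of all. CACNCCAC, a core of the sterol response element, was found in 1 of the 13 (SREBF2) and 4.87% of all, and the E-box CACGTG in 0 of the 13 and 6.34% of all. These matches are descriptions of letters in a window, and both strands were searched for all 4 motifs.

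Fatty acid and triglyceride synthesis genes had a lower median change. None of the 20 tested was called, and the median change was 0.31. In all 3 sets, 13 were higher at 48 h and 2 were lower, against 20.0% and 16.3% of all genes tested. Fatty acid synthase, FASN, measured 8.80, 8.74 and 8.12 at 6 h and 9.37, 9.25 and 8.43 at 48 h. Its set 3 arrays were the lowest at both times and the groups overlapped. The change of FASN was 0.46 ± 0.10 (adjusted p = 0.0991). SREBF1, the regulator of this pathway, had a change of 0.46 ± 0.11 (adjusted p = 0.124) and the lipid droplet protein PNPLA3 one of 0.70 ± 0.14 (adjusted p = 0.0838).

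Among bile acid and secretory genes, SLC51B and TTR rose. SLC51B, a subunit of the transporter that exports bile acids across the basolateral membrane, measured 4.53, 4.12 and 4.50 at 6 h and 5.57, 5.51 and 5.31 at 48 h. SLC51B rose by 1.08 ± 0.13, or 2.12-fold (adjusted p = 0.0182). The other 2 tested genes of bile acid synthesis and transport, the FGF receptor FGFR4 and its co-receptor KLB, had changes of 0.40 and 0.61 that did not pass the threshold.

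TTR, the plasma carrier of thyroxine and retinol-binding protein, measured 8.98, 9.02 and 9.27 at 6 h and 9.91, 9.95 and 9.77 at 48 h. TTR rose by 0.78 ± 0.12 (adjusted p = 0.0472), the 1 call among 12 tested hepatocyte markers. The call was lost after quantile normalization (adjusted p = 0.0560), with no filter (0.119) and without set 1 (0.205). ALB and AFP, albumin and its fetal counterpart, had changes of -0.05 and -0.02. CCL16, a chemokine made in liver that shares only letters with the herb's abbreviation, measured 5.40, 5.34 and 5.76 at 6 h and 6.29, 6.26 and 6.54 at 48 h. It rose by 0.86 ± 0.10 (adjusted p = 0.0172).

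The 3 fibrinogen chains had changes from 0.19 to 0.74, and none passed the threshold. FGA measured 10.05, 10.25 and 9.91 at 6 h and 10.72, 10.80 and 10.92 at 48 h, a change of 0.74 ± 0.12 (adjusted p = 0.0503). FGG had a change of 0.57 ± 0.11 (adjusted p = 0.0779) and FGB one of 0.19 ± 0.11. The iron hormone HAMP had a change of 0.84 ± 0.20 (adjusted p = 0.119), with 9.33 in set 3 and 7.97 and 8.29 in sets 1 and 2 at 48 h. None of the 12 tested acute phase genes was called, with a median change of 0.17.

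Liver transcription factors had a median change of 0.26, and none of 10 was called. The groups of FOXA2, FOXA3, GATA6, PPARA and ONECUT1 did not overlap, and their changes ran from 0.28 to 0.52. All 48 h arrays lay above all 6 h arrays for 6.92% of all genes tested. XBP1, the transcription factor of the unfolded protein response, measured 8.01 on all 3 arrays at 6 h and 8.79, 8.80 and 8.44 at 48 h. Its change was 0.67 ± 0.11 (adjusted p = 0.0563), and none of the 10 tested genes of ER chaperones and the unfolded protein response was called.

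Of 13 tested WNT targets and inhibitors, DKK4 rose and no other member was called. The list's median change was 0.17, with 5 members higher and 3 lower in all sets, against 20.0% and 16.3% of all genes tested. The WNT-responsive transcription factor SP5 had a change of 0.64 ± 0.11 (adjusted p = 0.0599), and glutamine synthetase, GLUL, one of 0.55 ± 0.14 (adjusted p = 0.133). AXIN2 and LGR5, both WNT targets, had changes of -0.08 and -0.32.

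Of the 8 genes that fell, 2 are named for microRNAs. Their mature sequences from RefSeq are shown with the seed, bases 2 to 8, in capitals, because the seed sets which transcripts a microRNA pairs with. They lie at chr17:59841273-59841294 and chr17:8186948-8186969, both on the plus strand of GRCh38.p14, and share no seed.
hsa-miR-21-5p: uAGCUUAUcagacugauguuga
hsa-miR-4521: gCUAAGGAaguccugugcucag
The array measured labelled total RNA at the loci of these genes, not the mature forms. MIR21, named for a microRNA abundant in many tumours, measured 7.57, 8.68 and 7.70 at 6 h and 6.53, 7.56 and 6.52 at 48 h. Set 2 was highest at both times. The groups were close, with 7.56 the highest at 48 h and 7.57 the lowest at 6 h. MIR21 fell by 1.11 ± 0.10 (adjusted p = 0.00843), and its standard error in the 29-array fit was 0.57. On the 6 arrays without the block its limma adjusted p was 0.481.

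MIR4521 measured 6.47, 7.10 and 5.15 at 6 h and 4.58, 5.20 and 4.20 at 48 h. The groups overlapped, while each set was lower at 48 h. MIR4521 fell by 1.58 ± 0.18 (adjusted p = 0.0182). A second, dimmer probe set had a change of -0.29.

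CD109, a membrane-anchored protein that binds TGF-beta, measured 7.73, 7.73 and 7.04 at 6 h and 6.24, 6.43 and 6.37 at 48 h. CD109 fell by 1.15 ± 0.15 (adjusted p = 0.0363). A second, dimmer probe set of CD109 gave the opposite sign, 0.26. KLF10, a transcription factor induced by TGF-beta, measured 7.55, 7.38 and 7.71 at 6 h and 6.64, 6.80 and 7.04 at 48 h, and fell by 0.72 ± 0.11 (adjusted p = 0.0446). It was the called member among 22 immediate early and growth factor response genes, whose median change was -0.03. Other members of that list went both ways: FOSL1 and JUNB had changes of -0.77 and -0.72, EGR1 and MYC of 0.50 each, and CCN2 of 0.57, none of them called.

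SOS1, the exchange factor that activates RAS, measured 9.35, 9.25 and 9.51 at 6 h and 8.37, 8.42 and 8.62 at 48 h. SOS1 fell by 0.90 ± 0.10, with 1.86-fold more signal at 6 h (adjusted p = 0.0148). THBS1, a matrix glycoprotein, measured 9.06, 9.33 and 9.62 at 6 h and 8.41, 8.72 and 8.92 at 48 h, with set 3 highest at both times. THBS1 fell by 0.65 ± 0.09 (adjusted p = 0.0446), the 1 call among 11 tested matrix genes. Within that list the collagen crosslinking enzyme LOX had a change of 0.95 (adjusted p = 0.0563). TMC7, a transmembrane channel-like protein, fell by 0.97 ± 0.10 (adjusted p = 0.0120). The long non-coding RNA LINC00673 fell by 0.71 ± 0.10 (adjusted p = 0.0363).

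Among cell cycle genes no member passed the threshold. None of 27 tested G1/S and DNA replication genes was called, 14 were lower in all 3 sets and 0 were higher, against 16.3% and 20.0% of all genes, and the median change was -0.15. CCNE1, the cyclin that drives entry into S phase, measured 8.37, 8.23 and 7.94 at 6 h and 7.75, 7.78 and 7.40 at 48 h. Its change was -0.54 ± 0.10 (adjusted p = 0.0607). Of 12 DNA repair genes, 7 were lower in all sets and none was called, with a median of -0.19; the nuclease EXO1 had a change of -0.44.

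The 30 tested G2 and M phase genes had a median change of -0.08, which was 0.06 in set 1 and -0.19 and -0.11 in sets 2 and 3. The proliferation markers MKI67 and CCNB1 had changes of -0.05 and -0.08, and the G1 cyclin CCND1 one of -0.09. Of 14 actin cytoskeleton and focal adhesion genes, 8 were lower in all sets and 2 higher, with a median of -0.17 and no call. TAGLN2 and TAGLN, actin-binding proteins, had changes of -0.63 and -0.47. Splicing factors had 13 of 30 lower and 4 higher in all sets, with a median of -0.10. Over all genes tested, 16.3% were lower and 20.0% higher in all sets.

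Several other lists had medians close to that of all genes. Oxidative phosphorylation (10 tested), cytosolic ribosomal proteins (23), interferon-stimulated genes (12) and lysosome and autophagy genes (21) had median changes of 0.06, 0.06, 0.08 and 0.00, with no call. Housekeeping genes had a median of -0.04 over 7 tested, and GAPDH a change of -0.09. The hypoxia target VEGFA had a change of 0.26, and the stress cytokine GDF15 one of -0.35. Glucose-responsive ChREBP and MondoA targets (6 tested, none called) had a median of -0.21, with -0.43, -0.37 and 0.10 in sets 1 to 3. Drug, steroid and alcohol metabolism (8 tested, none called) had a median of 0.28, with 0.30, 0.39 and -0.08 in the sets. Circadian clock, urea cycle and amino acid breakdown, and p53 target genes had medians of 0.10, 0.11 and -0.11, with no call. TXNIP measured 7.90, 7.87 and 5.81 at 6 h and 6.78, 7.26 and 5.96 at 48 h, so that set 3 was low at both times. IGFBP1, a hepatic binding protein of insulin-like growth factors, had changes of the same sign in all sets and a mean of -0.48 (adjusted p = 0.277).

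**Figure D4:**
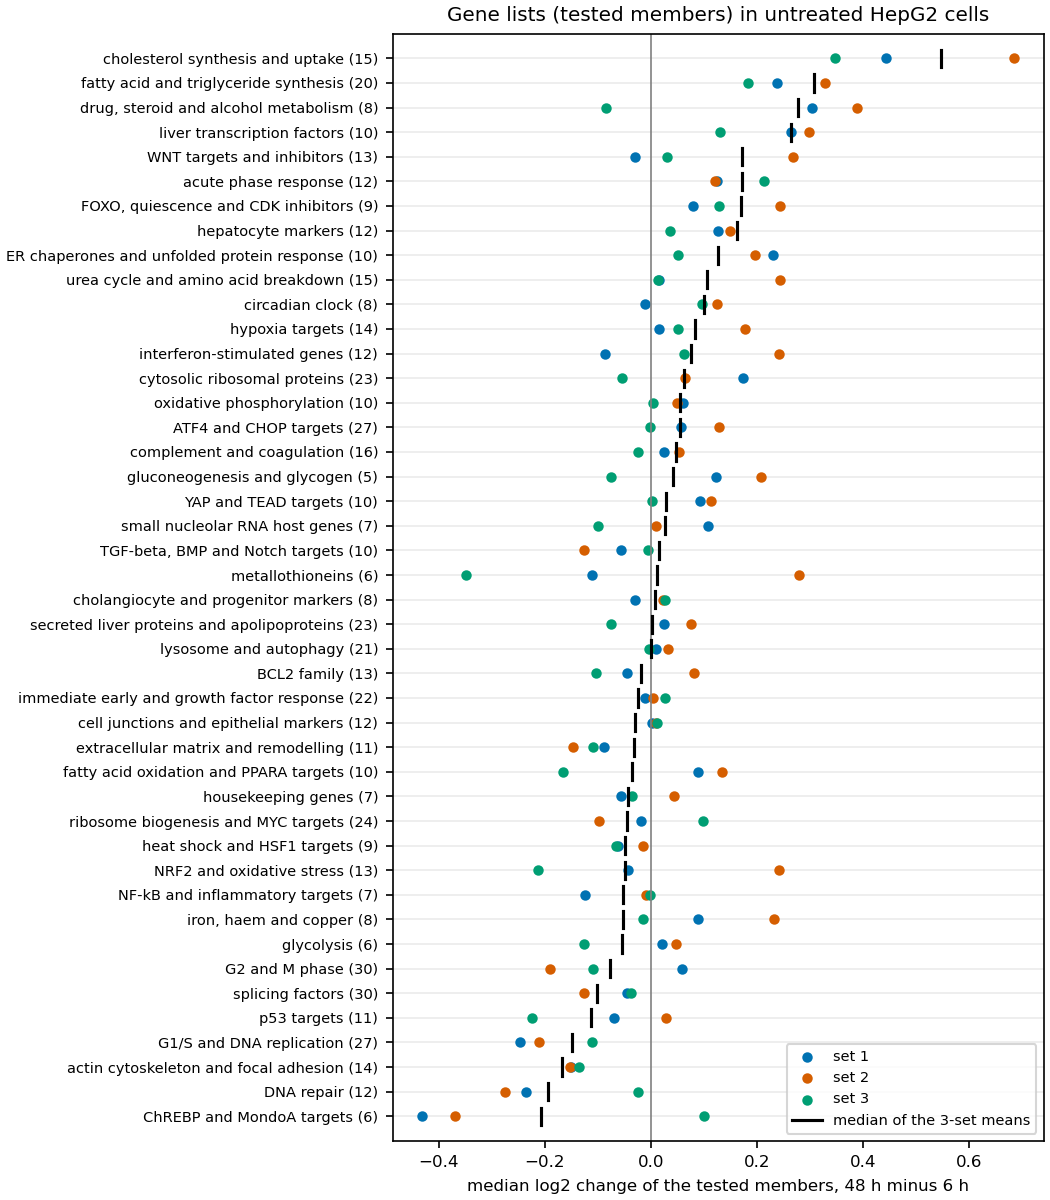
Median log2 change from 6 h to 48 h of the tested members of each gene list with at least 5 tested, in each set (points) and for the mean of the sets (bars); the number tested stands beside each name. Cholesterol synthesis and uptake lies highest at 0.55, and the points of the sets lie on both sides of 0 for many lists.

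The 6 h and 48 h groups were also set beside the other untreated times. HOXD1 had means of 5.28, 5.29, 5.62, 5.88, 6.15 and 7.16 at 0, 6, 12, 18, 24 and 48 h. Its 0 h arrays were 4.45 and 6.11, so that the 0 h mean is poorly determined. DKK4 had means of 4.09, 3.79, 3.86, 4.46, 4.48 and 5.56, with 3.68, 4.36 and 5.40 in sets 1 to 3 at 24 h.

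For several genes that rose, 6 h lay below 0 h. TTR was at 9.45 at 0 h, 9.09 at 6 h, 8.49 at 12 h and 9.87 at 48 h. HMGCS1 was at 8.03, 7.53, 7.35 and 8.23 at those times, and SLC51B at 4.89, 4.38, 3.52 and 5.46. The 12 h arrays had lower medians (2.506 to 2.537) than those of 6 h and 48 h, as did set 1 at 18 h (2.294) and at 24 h (2.828). After quantile normalization of all arrays, the 12 h means were 8.59 for TTR, 7.44 for HMGCS1 and 3.90 for SLC51B, against 9.04, 7.43 and 4.20 at 6 h.

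SOS1 was highest at 6 h, with 9.37 against 8.43 at 0 h and 8.47 at 48 h. MIR21 had means of 7.65, 7.98, 6.84, 6.48, 5.55 and 6.87 at the 6 times, so that its 48 h level lay between those of 24 h and 6 h. The spread at 24 h was wide, with 4.98, 4.94 and 6.73 in sets 1 to 3. After quantile normalization the means at 6, 12, 18, 24 and 48 h were 5.13, 5.79, 6.08, 6.22 and 7.04 for HOXD1. Those of DKK4 were 3.61, 4.21, 4.67, 4.38 and 5.41, and those of MIR21 were 7.89, 6.95, 6.70, 5.53 and 6.75. No test was made between these other times.

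**Figure D5:**
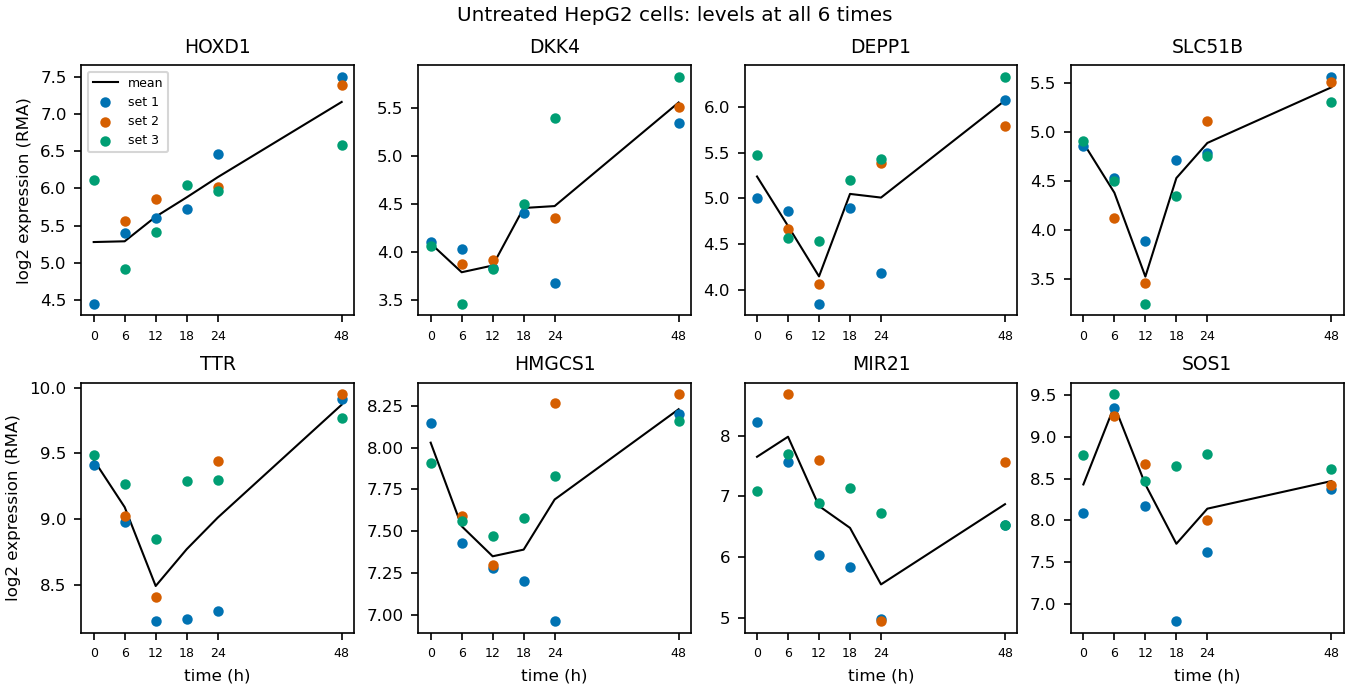
Log2 expression of 8 genes called in the paired fit against time in untreated cells; points are single arrays coloured by set and the line joins the means of 2 or 3 arrays. The mean of HOXD1 goes from 5.29 at 6 h to 7.16 at 48 h, while that of SOS1 is highest at 6 h, at 9.37.

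The change with time was compared with that in CCL-treated cells, which have 3 arrays at 6 h and, at 48 h, arrays of sets 1 and 2. In CCL-treated cells DKK4 measured 4.31, 4.70 and 4.28 at 6 h and 3.07 and 3.48 at 48 h, all below log2 5. The change was thus -1.23 within each of sets 1 and 2, against 1.32 and 1.63 in the same sets of untreated cells. Over all genes tested, the median difference of the changes was -0.193. Of 364 genes at an unadjusted limma p under 0.05, 290 had a negative difference. For DKK4 the difference was -2.93 ± 0.45 (adjusted p = 0.00407, limma over all 29 arrays), the 1 call of 6529 genes in that test. Without the CCL 48 h array of set 1 it was lost (adjusted p = 0.106). The change of HOXD1 in CCL-treated cells was 0.98 and 1.32 in sets 1 and 2, and the difference from untreated cells was not called.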

How the data were processed

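RNA abundance in HepG2 cells was read on Affymetrix gene arrays from biotin-labelled cRNA. The authors deposited log2 values for each probe set. The submitters' processing notes name Affymetrix Expression Console 1.1 and the RMA method. The genome build and which arrays were normalized together are not given in the sources used here. Array number limits the precision, and no raw intensities were used.

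Of 53617 probe sets, 16098 had 1 gene symbol in the array's probe table, 0 had several and 37519 had none. Where a gene had several probe sets (779 of 14884 genes), the one with the highest mean over all arrays was used. The 6529 genes above log2 5 on at least 2 of the 29 arrays were tested and 8355 were not.

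The 29-array fit estimated 1 mean for each arm and time in limma 3.58.1 (R 4.3.3; lmFit, then eBayes; two-sided tests), with Benjamini-Hochberg adjustment over the 6529 genes. The paired fit used the 6 arrays with set as a fixed block. The labels give each group the same set numbers. Residuals of arrays with the same number correlated at 0.426, 0.322 and 0.503, and those with different numbers at -0.384 to 0.056. On this basis the numbers were taken to pair the arrays. Residuals were taken around each group's own mean, so the values for same and for different numbers are not independent of each other. This check and the calls of both fits were seen together. The scripts were tested on simulated data.

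The lists (51 lists, 1249 genes, of which 714 had a probe set and 561 were tested, 2 through an older symbol) and the genes named were chosen with earlier results of these data known. Of the lists, 49 had tested members; replication-dependent histones and proteasome subunits had none. The rule for named genes took the 12 highest and 12 lowest changes among called genes whose groups did not overlap, up to 4 called members of each list with the largest change, and 17 genes whatever they showed. Of these 17, 12 are reported here, and the others were not analysed here. For the 29-array fit the rule gives DKK4 alone. Naming all 23 genes of the paired fit, and uncalled list members, was decided after their values were seen. Alternatives were other normalizations, filters, probe set rules, samples in the fit, blocks, array weights and single arrays or sets left out.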

Additional observations from a re-analysis of the deposited data

Results flagged for a closer look

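DKK4 was picked out because its change from 6 h to 48 h differed between CCL-treated and untreated cells by -2.93 on the log2 scale (limma interaction test, adjusted p = 0.00407). At 48 h the CCL-treated cells had 2 arrays. Without set 1 of these the adjusted p was 0.106, and leaving out the CCL 48 h array of set 2 raised the count of genes with such a difference from 1 to 555. The array medians of the 2 CCL 48 h arrays were 2.753 in set 1 and 2.960 in set 2, and the part of that difference in these counts was not tested.

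A probe set with no gene symbol, outside the genes tested, was called in the 29-array fit when the 7720 unnamed probe sets above the filter were fitted in the same way. Its change was -4.49 (adjusted p = 0.0469), with -5.25, -4.99 and -3.22 in sets 1 to 3 and means of 9.23 at 6 h and 4.74 at 48 h. The paired fit gave it an adjusted p of 0.350. That fit called 0 of the unnamed probe sets in limma, with 719 (9.31%) at an unadjusted p under 0.05.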

How the results depend on the processing

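All counts here are from limma. Over 29 arrays, 1 gene was called (76 at an unadjusted p under 0.05). A filter at log2 6 removed DKK4 from the test, so that its 0 calls (68 unadjusted) follow from the filter. The 16 untreated arrays alone gave 0 (111), and leaving out both set 3 arrays 0 (80). The 6 arrays alone gave 2, also after quantile normalization. With set as a fixed replicate block the count was 2 over 29 arrays and 23 on the 6 arrays, and 3 with a random block. Array weights, whose estimation did not fully converge, gave 269 (171 higher, 98 lower). Leaving out each of the 6 arrays in turn gave 0 to 0 calls (40 to 92 unadjusted). In the paired fit the 23 calls became 9 with no filter, 90 with a filter at log2 6, 102 with array weights and 0 in the 16 untreated arrays with the block (233 unadjusted). These paired alternatives were chosen after seeing the data. Leaving out 1 set gave 7 to 413 calls: 7 without set 1, 55 without set 2 and 413 without set 3. Of the 23 genes, 5, 21 and 23 were among those, and 19 were called after quantile normalization (not TTR, HK2, PHF8 and PRUNE1). Over 29 arrays with array weights 22 were called, and the 1 lost was MIR21 (adjusted p = 0.348). The causes were not tested. The difference between CCL-treated and untreated cells was called for 1 gene, for 2 after quantile normalization and for 7 with the fixed block. Leaving out each array gave 0 to 555, with 0 (108 unadjusted) without the CCL 48 h array of set 1. The changes of the 23 genes kept their direction in every alternative run. Those of AFP, CCNB1, CCND1, GAPDH and MKI67, all uncalled and near 0, changed sign in at least 1. With the mean of a gene's probe sets, the change was -0.44 for CD109 and 0.88 for DEPP1. The mean levels of DKK4, DEPP1, SLC51B and MVK at 6 h lay below log2 5, near the low end of the scale.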

Other observations

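Several further genes had changes in all 3 sets without passing the threshold of the paired fit, and were picked out after their values were seen. CLDN6, a tight junction protein, measured 7.39, 7.16 and 6.60 at 6 h and 6.30, 6.15 and 6.16 at 48 h, a change of -0.84 ± 0.14 (adjusted p = 0.0563). EREG, a ligand of the EGF receptor, had a change of -0.80 ± 0.13 (adjusted p = 0.0563), with 4.50, 4.77 and 5.15 at 6 h and 3.53, 3.76 and 4.73 at 48 h, so that its groups overlapped. SQOR, a mitochondrial enzyme that oxidizes sulfide, had a change of -0.75 ± 0.13 (adjusted p = 0.0563).

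Among 10 tested TGF-beta, BMP and Notch targets none was called, and the list's median change was 0.01. Its lowest member was SKIL, a repressor of SMAD signalling, with a change of -0.72 ± 0.11 (adjusted p = 0.0503). FSTL3, a secreted binder of activin, had a change of -0.79 ± 0.14 (adjusted p = 0.0605). For RPS15A, a ribosomal protein, sets 1 and 2 gave changes of 1.19 and 1.15 and set 3 one of 0.32, while the median of the 23 tested cytosolic ribosomal proteins was 0.06.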
